A study of Mus musculus with 20 samples.

Results

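The oxidative phosphorylation subunits described here are the nuclear genes whose symbols start with the names of the 5 respiratory complexes: Nduf for complex I, Sdh for complex II, Uqcr for complex III, Cox4 to Cox8 for complex IV and Atp5 for complex V. Of 23329 gene symbols in the count table, 85 had such a symbol and 80 of them reached a total of at least 200 counts over the 20 libraries. These 80 members comprised 35 genes of complex I, 4 of complex II, 8 of complex III, 16 of complex IV and 17 of complex V. The total count that chose them ran close to the limit for Cox4i2 (244 counts), Cox7a1 (691) and Cox6b2 (798) on the inside, and for Ndufa4l2 (117), Cox7b2 (16), Cox8b (10), Cox8c (4) and Ndufs5 (0) on the outside. Ndufs5, a complex I subunit, was listed at 0 in every library.

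RNA was sequenced from sorted myeloid cells of C57BL/6 mice, and 4 of the 6 groups came from brain tumours. GEMM tumours were raised by injecting, into the frontal cortex of Flt3:Cre Rosa26:mTmG mice about 6 weeks old, DF1 cells that carried RCAS vectors for HA-tagged PDGFB and for a short hairpin against p53. In these mice cells descended from Flt3-expressing bone marrow progenitors switch from red tdTomato to green GFP, so the sort separated tumour-associated microglia (GEMM MG, n = 3) from bone-marrow-derived macrophages (GEMM BMDM, n = 3) by colour, within cells positive for CD45 and CD11b and negative for Ly6C and Ly6G. GL261 MG and GL261 BMDM (n = 3 each) came from tumours of GL261, a mouse glioma cell line; the sources do not state how those tumours were made or whether their hosts carried the reporter. Untreated counterparts were microglia of normal brain (normal MG, n = 3) and Ly6C-high monocytes from blood, of which 5 libraries were made. No age is stated for the GL261, normal brain or blood mice. Library titles carry a number that the MG and BMDM of 1 tumour share, and where these are not separate animals the p-values measure only the spread between samples. Levels are CPM (counts scaled to a common library total, with edgeR's TMM factors) as mean ± SD over the libraries of a group. A gene was called where edgeR's quasi-likelihood test over 15363 genes gave a Benjamini-Hochberg adjusted p under 0.05, and log2 fold changes carry their SE.

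Oxidative phosphorylation passes electrons from NADH (complex I) and succinate (complex II) through ubiquinone, complex III, cytochrome c and complex IV to oxygen, and complex V uses the resulting proton gradient to make ATP. Most subunits are encoded in the nucleus and are built into complexes with a small set encoded in mitochondrial DNA, so both genomes have to supply parts in matching amounts. Macrophages are known to shift between glycolysis and oxidative phosphorylation as their activation changes, and some complexes, above all complex II, also feed inflammatory signalling in these cells. The subunits encoded in mitochondrial DNA are not analysed here.

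The GEMM MG libraries held 23064781 to 36297826 counts and the GEMM BMDM libraries 30048409 to 32913488. GL261 libraries held 18113450 to 22088979, normal MG 26421803 to 30391652, and blood monocytes the fewest with 5077787 to 7801073, so members near 0 were measured least precisely in monocytes. Against the labels, 8 microglia genes reached a summed 33773 to 38259 CPM in normal MG, against 786 to 1257 CPM in monocytes, and in each model they were higher in MG than in BMDM. In GL261 the microglia sum was 2239 to 8421 CPM in MG and 726 to 1711 CPM in BMDM. GEMM BMDM held 3339 to 6720 CPM, so across models the ranges of GL261 MG and GEMM BMDM overlapped. Monocyte markers (5 genes) ranged from 24.9 to 4467 CPM among GL261 MG libraries and from 155 to 22813 CPM among GL261 BMDM libraries, and their part in the results was not tested beyond leaving out single libraries. Monocytes carried Xist at 142 to 645 CPM against 0 to 2.88 CPM in the other 15 libraries, so comparisons with monocytes are also comparisons between female and male libraries, and the 3 X-linked members (Ndufa1, Ndufb11 and Cox7b) are read with that limit. Neutrophil markers summed to 1680 to 18495 CPM in monocytes and to 79.8 to 2208 CPM elsewhere. Markers of oligodendrocyte precursors or glioma cells summed to 3.63 to 12.5 CPM in normal MG, 154 to 239 CPM in GEMM MG and 454 to 904 CPM in GL261 MG, with all 6 markers detected, and their part in the differences between tumour and normal microglia was not tested. Markers of monocyte-derived macrophages (7 genes, all detected) moved the same way, from 351 to 457 CPM in normal MG to 3131 to 6219 CPM in GEMM MG and 2417 to 4424 CPM in GL261 MG, while the microglia genes stood at 13474 to 21888 CPM in GEMM MG. Ribosomal Rn45s took 13.5 and 14.3% of counts in monocyte libraries 64820 and 64821 and at most 1.62% in the others. In such bulk samples fewer cells of a type and less RNA per cell cannot be told apart.

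Respiratory chain transcripts were higher in tumour microglia than in microglia of normal brain. Summed over the 80 members, normal MG stood at 5429, 5506 and 5689 CPM. GEMM MG reached 10253, 11100 and 11545 CPM, and GL261 MG 9174, 9741 and 12764 CPM. The macrophage and glioma markers given above also differed between these groups, and their part in this result was not tested. Every tumour microglia library lay above every normal one, and the widest spread was in GL261 MG, where tumour 80769 stood above the other two. GEMM BMDM held 10004, 11378 and 12327 CPM and GL261 BMDM 10422, 11643 and 12412 CPM. Monocytes ran from 6828 through a median of 6981 to 7679 CPM, between normal microglia and the 12 tumour libraries. Of the 80 members, 57 had their lowest group mean in normal MG and 19 in monocytes, and the same shares over all genes were not computed. The highest mean was in one of the 4 tumour groups for all but 8 members, and those 8 are described below.

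**Figure D1:**
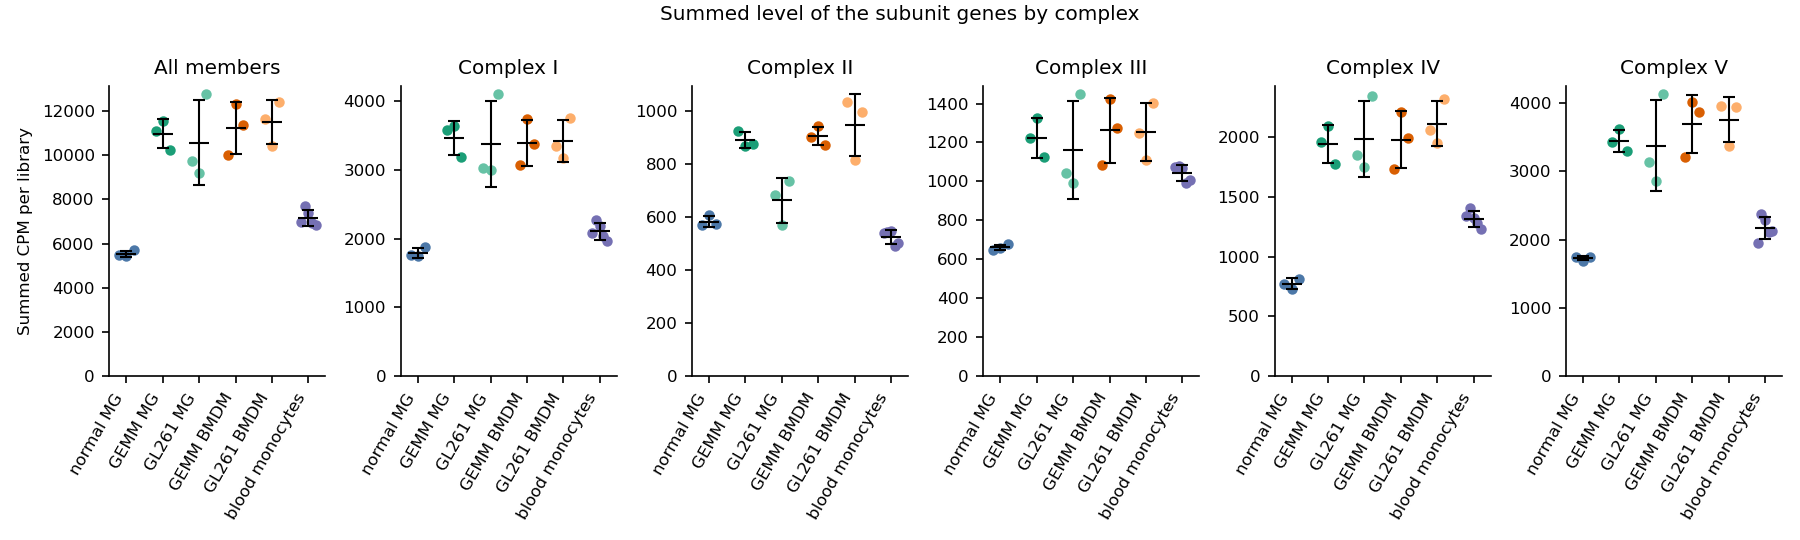
Summed CPM of all 80 members and of each complex (y axis, CPM) in the 20 libraries of 6 groups (x axis). Each dot is 1 library, and bars give mean ± SD. Normal MG sit lowest for all members together (5542 ± 134 CPM) and the 4 tumour groups highest (10560 ± 1930 to 11492 ± 1003 CPM), while complex II is at 665 ± 84.6 CPM in GL261 MG.

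Levels per kilobase of transcript, averaged over the 6 group means, ranged widely among members. The highest were Atp5b, the catalytic beta subunit of ATP synthase, at 471 CPM per kb, and Cox4i1, a structural subunit of cytochrome c oxidase, at 428 CPM per kb. Cox6a1 followed at 367 and Uqcrb at 317 CPM per kb. Large electron-carrying subunits such as Ndufs1, which holds iron-sulfur clusters of complex I, were lower, at 34.3 CPM per kb. The lowest were isoforms known from other tissues, with Cox4i2 at 0.771, Cox6b2 (a testis form) at 3.80 and Cox7a1 (a heart and muscle form) at 4.03 CPM per kb.

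Within microglia, 72 of the 80 members rose and 2 fell in GEMM MG against normal MG, where 23.0% of all 15363 genes were called higher and 20.9% lower. The members' median log2 fold change was 1.13, beside -0.02 for all genes tested. In GL261 MG against normal MG 63 members rose and 3 fell, with 30.6% of all genes called higher and 27.2% lower, at a median log2 fold change of 1.14 beside 0.01. Both comparisons use the same 3 normal MG libraries. Groups did not overlap for 76 members higher and 2 lower in GEMM MG (30.3 and 31.9% of all genes), and for 68 higher and 3 lower in GL261 MG (33.4 and 33.1%). In both models 62 members rose, and the share of all genes that rose in both was not computed.

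**Figure D2:**
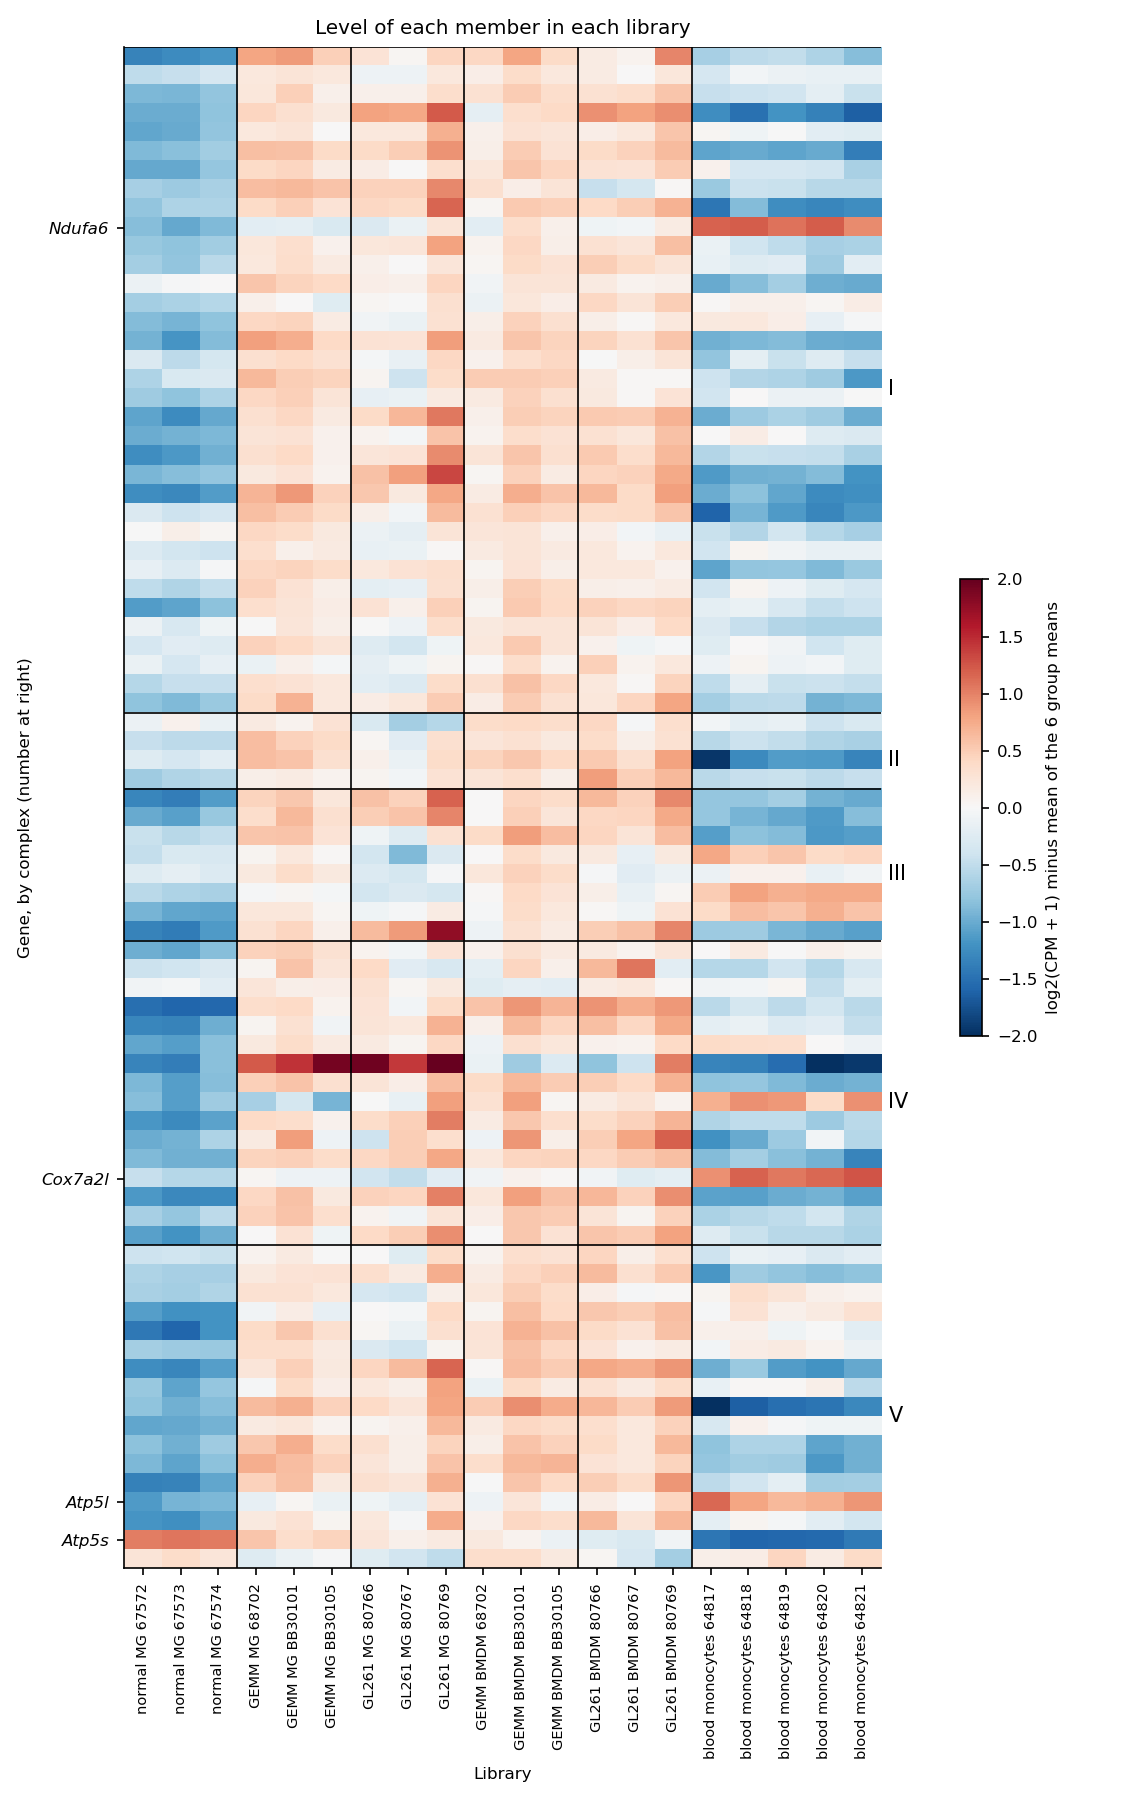
Level of each of the 80 members (rows, grouped by complex) in each library (columns), as log2(CPM + 1) minus the mean of the 6 group means (colour scale from -2 to 2). Normal MG are low in nearly all rows and tumour libraries high; the 4 labelled rows (Ndufa6, Cox7a2l, Atp5l and Atp5s) have another order.

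Transcript length moved with these comparisons and has to be read beside them. Members are short, with a median transcript length of 743.5 nucleotides against 2782.5 for all genes tested that had a length, and short genes as a class were lower in normal MG. The trend of log2 CPM with length, read at the members' lengths, was -0.415 to -0.325 in the normal MG libraries, -0.162 to -0.113 in monocytes and -0.000726 to 0.226 in the 12 tumour libraries. With this trend entered as an offset, 68 members were called higher and 1 lower in GEMM MG, at a median log2 fold change of 0.75. In GL261 MG 59 were higher and 4 lower, at a median of 0.61. RNA quality, one property that can go with such a trend, was not measured here, and its part in the result was not tested.

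**Figure D3:**
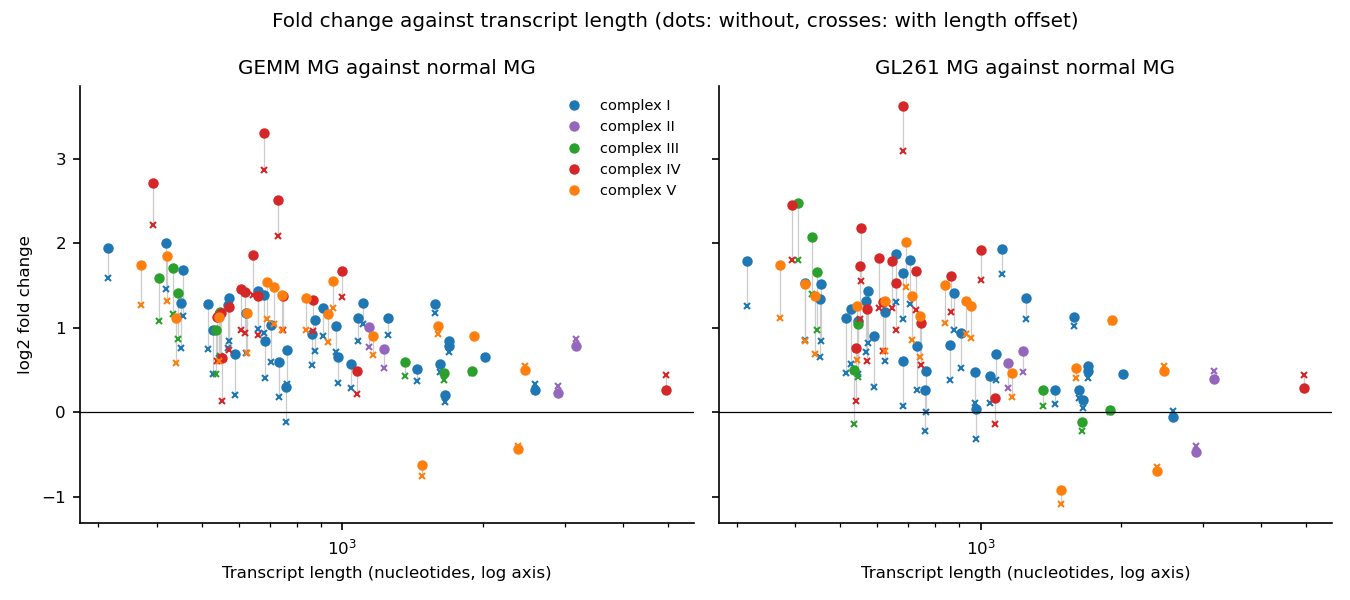
Log2 fold change of each member in tumour MG against normal MG (y axis) against its transcript length in nucleotides (x axis, log scale), for GEMM (left) and GL261 (right). Dots are the fit without and crosses the fit with the length offset, joined by a line for each member; the offset lowers the median from 1.13 to 0.75 (GEMM) and from 1.14 to 0.61 (GL261), and moves short members most.

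In complex I, the proton-pumping NADH dehydrogenase, 32 of 35 members rose in GEMM MG and 28 in GL261 MG. All 27 accessory subunits rose in GEMM MG against normal MG (median log2 fold change 1.12, range 0.51 to 2.00) and 25 of them in GL261 MG (median 1.13, range 0.27 to 1.94). The 7 nuclear-encoded core subunits, which carry the flavin and the iron-sulfur clusters, had medians of 0.57 and 0.27, with 4 and 2 of them called higher; this division is textbook knowledge and was applied after the values were seen. Core transcripts were also longer, with a median of 1623 nucleotides against 704 for the accessory ones. With the length offset the medians were 0.33 and 0.05 for the core and 0.75 and 0.57 for the accessory subunits.

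Ndufa1, a small X-linked subunit needed early in assembly of the membrane arm, was at 39.2, 41.7 and 43.9 CPM in normal MG. It reached 141, 174 and 183 CPM in GEMM MG and 103, 122 and 136 CPM in GL261 MG. Neither tumour group overlapped with normal MG, and the log2 fold changes were 2.00 ± 0.21 (adjusted p = 9.60e-07) and 1.53 ± 0.20 (adjusted p = 5.69e-06). Ndufc1, another small membrane-arm subunit, behaved alike at 1.95 ± 0.18 and 1.79 ± 0.18. Ndufa12, an accessory subunit near the peripheral arm, rose more in GL261: from 16.6, 16.6 and 19.1 CPM in normal MG to 39.1, 43.1 and 46.5 CPM in GEMM MG and 59.1, 60.3 and 81.1 CPM in GL261 MG. The 2 tumour microglia groups did not overlap for this gene (log2 difference 0.64 ± 0.16, adjusted p = 0.00590).

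The core subunits moved little by comparison. Ndufv1, which binds FMN and accepts electrons from NADH, was at 58.5, 65.7 and 67.1 CPM in normal MG and at 67.4, 71.8 and 79.9 CPM in GEMM MG, and its log2 difference of 0.20 ± 0.13 was not called (adjusted p = 0.228). Ndufs1 was at 86.8, 89.6 and 94.8 CPM in normal MG, 99.7, 113 and 116 CPM in GEMM MG and 76.5, 80.2 and 104 CPM in GL261 MG. In GL261 these values overlapped with normal MG (log2 difference -0.06 ± 0.13, adjusted p = 0.717).

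Complex II, succinate dehydrogenase, oxidises succinate in the citric acid cycle and has no subunit encoded in mitochondrial DNA. Its 4 genes summed to 570, 575 and 607 CPM in normal MG and to 871, 877 and 925 CPM in GEMM MG. GL261 MG held 572, 685 and 738 CPM, overlapping with normal MG, while the BMDM of the same tumours held 817, 997 and 1036 CPM. The lowest of the 4 in that comparison was Sdha, the flavoprotein that binds succinate. Sdha was at 261, 264 and 303 CPM in normal MG, 299, 324 and 349 CPM in GEMM MG and 177, 191 and 230 CPM in GL261 MG. GL261 MG lay wholly below the other groups of microglia, and Sdha fell against normal MG by 0.47 on the log2 scale (SE 0.14, adjusted p = 0.00836). It was the only complex II, III or IV member that fell in a tumour microglia group against normal MG. With library size alone as scaling, where the median of all genes lay at 0.32 against 0.01 with TMM, the call was lost at -0.16. Sdhb, the iron-sulfur subunit, rose in GEMM MG (1.01 ± 0.13) and in GL261 MG (0.58 ± 0.13), as did the membrane anchor Sdhd (0.75 ± 0.12 and 0.73 ± 0.12).

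In complex III, the cytochrome bc1 complex, all 8 members rose in GEMM MG and 5 in GL261 MG. With the length offset the complex III medians fell from 1.08 to 0.57 in GEMM MG and from 0.77 to 0.24 in GL261 MG. Called higher were then 7 and 4 members. Without the offset, the small subunit Uqcrq had the highest log2 fold change of complex III in GL261 MG. Uqcrq was at 40.2, 41.8 and 48.2 CPM in normal MG, at 115, 133 and 145 CPM in GEMM MG and at 166, 193 and 368 CPM in GL261 MG. The log2 fold changes of Uqcrq were 1.59 ± 0.23 and 2.48 ± 0.24, and in GL261 the value of tumour 80769 stood above the other libraries. The larger core proteins Uqcrc1 and Uqcrc2 rose in GEMM MG by 0.46 ± 0.16 and 0.49 ± 0.12, and in GL261 MG differed by -0.12 ± 0.16 and 0.03 ± 0.12, neither called. The Uqcrc1 call in GEMM was lost with the length offset, with library size alone as scaling, without MG library BB30101 and without normal library 67572. Uqcrb rose by 0.50 ± 0.16 in GL261 MG, and with the length offset it was at -0.14 and not called; the call was also lost without MG library 80769 (0.32) and without any 1 normal library (0.39 to 0.45).

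Complex IV, cytochrome c oxidase, had the highest medians in microglia, 1.38 in GEMM MG with 14 of 16 called higher and 1.64 in GL261 MG with 13 called higher. Cox5a, a nuclear-encoded subunit, was at 46.9, 47.5 and 49.4 CPM in normal MG. It reached 150, 183 and 189 CPM in GEMM MG and 138, 172 and 187 CPM in GL261 MG. These are log2 fold changes of 1.86 ± 0.13 (adjusted p = 2.32e-08) and 1.79 ± 0.13 (adjusted p = 1.47e-08). Cox4i1, Cox6b1 and Cox7a2, the ubiquitous forms of their subunits, rose by 1.38 ± 0.12, 1.42 ± 0.14 and 1.38 ± 0.14 in GEMM MG and by 1.06 ± 0.12, 1.31 ± 0.14 and 1.53 ± 0.14 in GL261 MG.

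Cox6a2, the heart and skeletal muscle isoform of subunit VIa (chromosome 7, 128205435 to 128206387 in GRCm38.p6, minus strand), set tumour microglia apart from every other group. It was at 1.29, 1.38 and 2.33 CPM in normal MG. GEMM MG held 13.0, 15.2 and 21.6 CPM and GL261 MG 15.0, 22.1 and 25 CPM. GEMM BMDM held 2.64, 3.95 and 4.45 CPM, GL261 BMDM 2.42, 3.50 and 11.2 CPM, and monocytes at most 1.38 CPM, with 1 library at 0. All 6 tumour microglia libraries lay above all 14 others. Cox6a2 rose by 3.31 ± 0.56 (adjusted p = 1.33e-04) and 3.63 ± 0.57 (adjusted p = 3.16e-05) against normal MG. It was lower in BMDM than in MG, at log2 differences of -2.17 ± 0.53 in GEMM (adjusted p = 0.00677) and -1.85 ± 0.52 in GL261 (adjusted p = 0.0200). The GL261 call was lost without BMDM library 80766 or 80767 or MG library 80769, and when only the 2 groups were fitted. Beside its ubiquitous partner Cox6a1 the isoform stayed minor. It made up 1.35 ± 0.315% of the CPM per kb of the pair in normal MG, 5.53 ± 1.60% in GEMM MG and 6.86 ± 0.986% in GL261 MG, and 1.41 ± 0.539% in GEMM BMDM. An exon of Itgad lies over Cox6a2 on the other strand, and Itgad itself was at 0.0748 to 2.81 CPM in all 20 libraries.

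**Figure D4:**
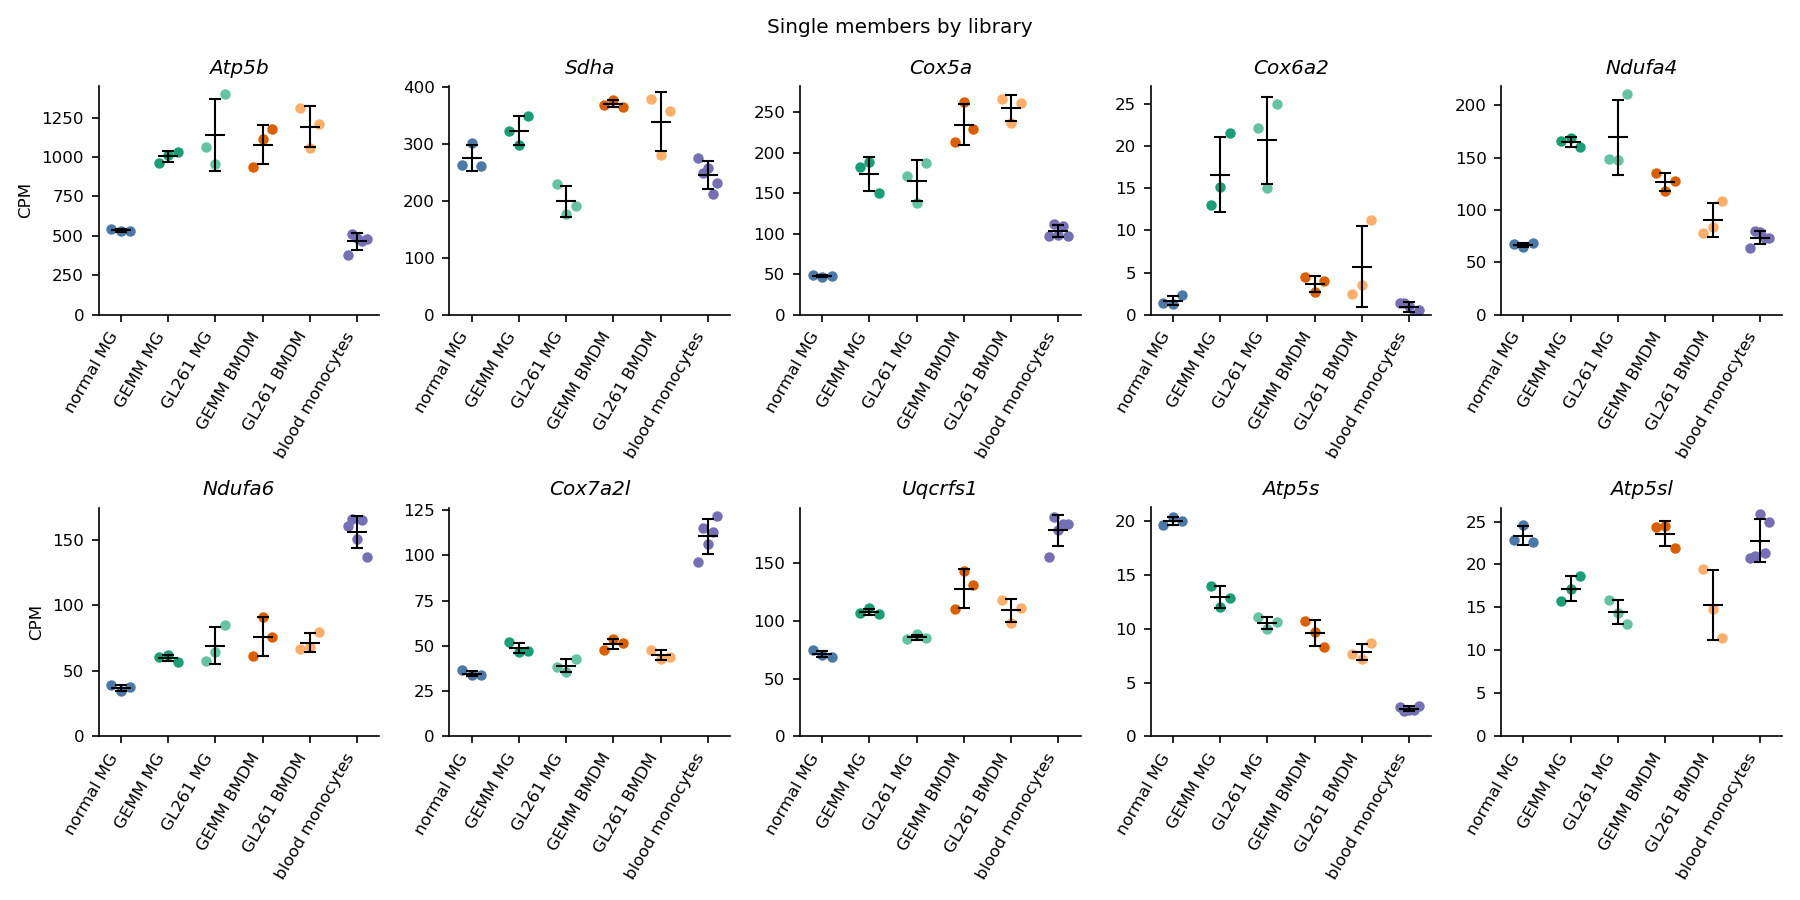
CPM (y axis, from 0) of 10 members in the 20 libraries by group (x axis); each dot is 1 library, and bars give mean ± SD. Cox6a2 is high in both groups of tumour MG, Sdha low in GL261 MG, Ndufa6, Cox7a2l and Uqcrfs1 highest in monocytes, and Atp5s highest in normal MG.

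Complex V, the ATP synthase, rose with 15 of 17 members in each model, at medians of 1.16 (GEMM MG) and 1.26 (GL261 MG). Atp5b was at 529, 529 and 546 CPM in normal MG, 964, 1014 and 1034 CPM in GEMM MG and 958, 1062 and 1400 CPM in GL261 MG. No tumour library overlapped with normal MG, and the log2 fold changes were 0.91 ± 0.16 and 1.09 ± 0.16. Atp5e, the small epsilon subunit of the central stalk, rose more in GEMM MG (1.85 ± 0.15) than Atp5a1, the alpha subunit (0.50 ± 0.15). In GL261 MG they were at 1.52 ± 0.15 and 0.49 ± 0.15. Their transcripts differ in length, with 421 nucleotides for Atp5e and 2471 for Atp5a1. With the length offset the complex V medians were 0.89 in GEMM MG and 0.73 in GL261 MG. The Atp5a1 call in GL261 was lost without MG library 80769, without any 1 normal library, and when only the 2 groups were fitted. The c-ring, the rotor that protons turn, can be built from 3 genes for the same mature protein. Atp5g3 supplied most of their summed CPM per kb in normal MG (64.9 ± 1.28%) and GEMM MG (65.5 ± 1.66%). In GL261 MG the share of Atp5g3 was 56.8 ± 3.01% and that of Atp5g1 35.4 ± 3.00%, against 26.1 ± 1.27% for Atp5g1 in normal MG. More than 50% of the 50-base windows of Atp5g1 and Atp5g2 occur in transcripts of other genes, so these shares depend on how shared reads were counted.

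The symbol rule also caught 3 genes that are not subunits, of which Atp5s and Atp5sl fell. Cox4nb, now named Emc8, belongs to the endoplasmic reticulum membrane complex. Atp5s encodes coupling factor B, a protein that associates with ATP synthase, and Atp5sl, now Dmac2, an assembly factor of the complex I membrane arm. Atp5s was at 19.7 to 20.4 CPM in normal MG, at 12, 12.9 and 14.0 CPM in GEMM MG and at 9.95, 10.6 and 11.1 CPM in GL261 MG, without overlap. It fell by 0.62 and by 0.92 on the log2 scale (SE 0.15 for each, adjusted p = 0.00292 and 5.95e-05). Atp5sl fell by 0.44 in GEMM MG (adjusted p = 0.0384), a call lost without any 1 of the 6 libraries, and by 0.69 in GL261 MG (adjusted p = 0.00171). Without these 3 genes, 72 of 77 subunit genes rose and 0 fell in GEMM MG by edgeR, also 0 at an unadjusted p under 0.05, and in GL261 MG 63 rose and 1, Sdha, fell. Cox4nb differed by 0.27 ± 0.12 and 0.29 ± 0.12 in the 2 models, not called.

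**Figure D5:**
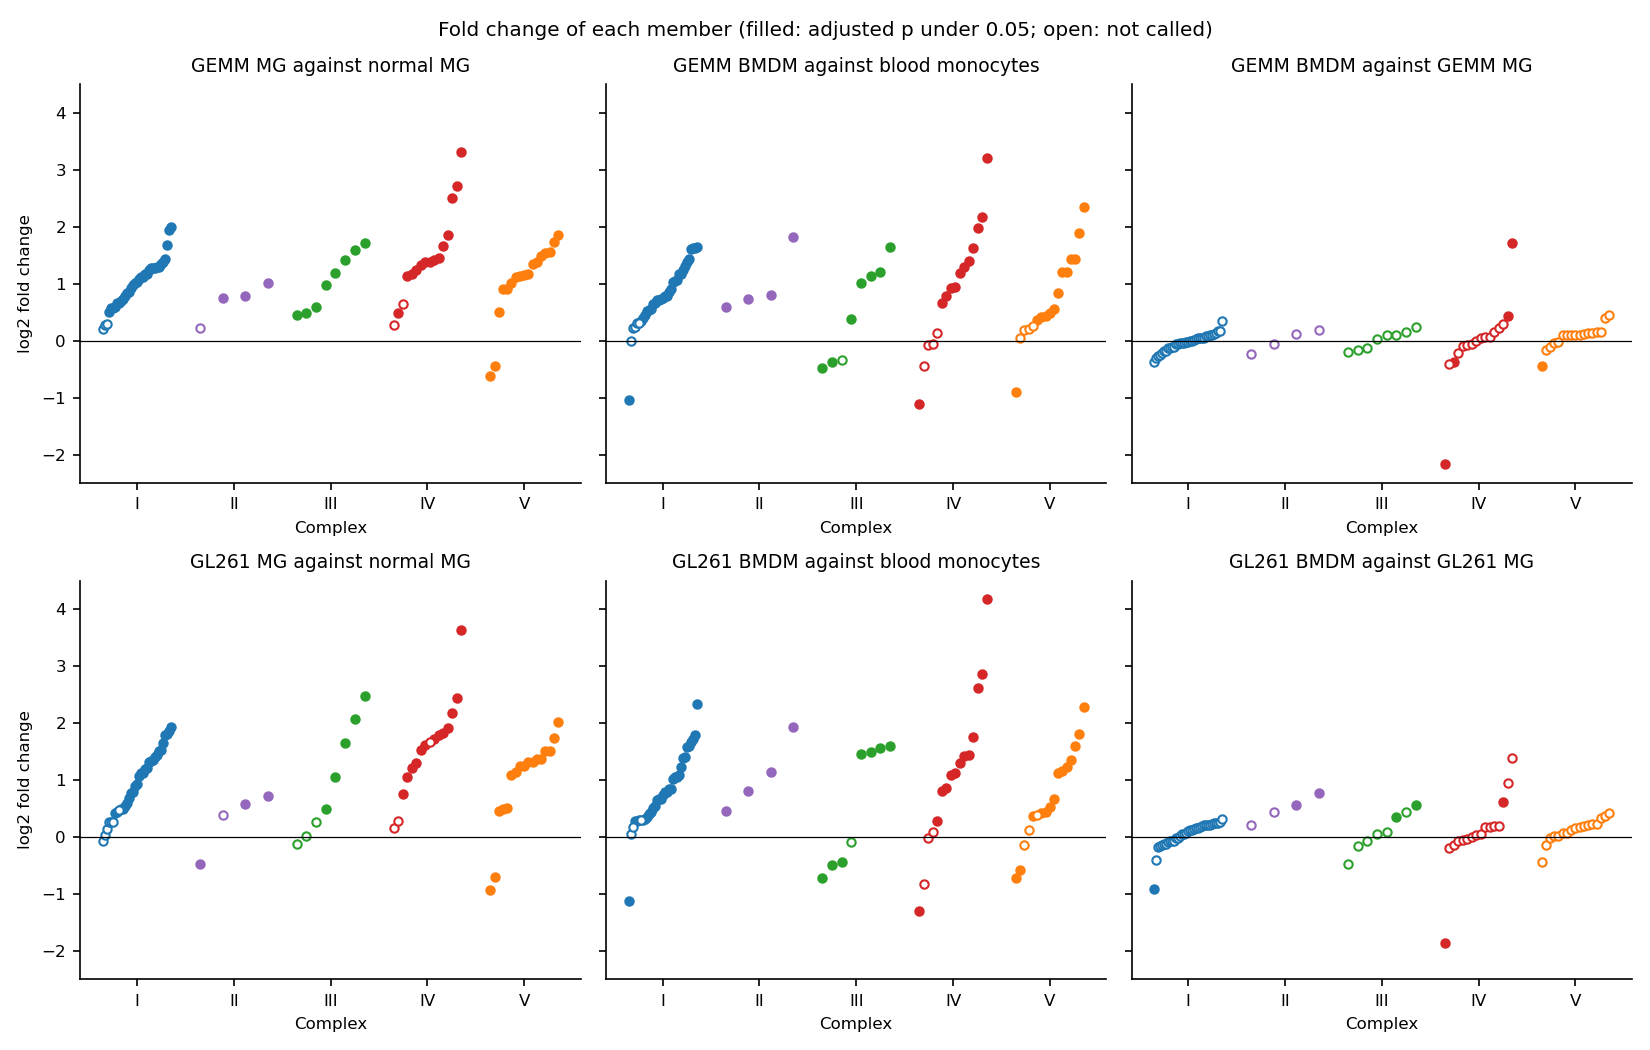
Log2 fold change of each member (y axis) by complex (x axis) in 6 comparisons, GEMM above and GL261 below. Filled dots have an adjusted p under 0.05 and open dots were not called. Most members lie above 0 in tumour MG against normal MG and in BMDM against monocytes, and close to 0 in BMDM against MG, where 5 members were called in GEMM and 7 in GL261.

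The same genes were also higher in bone-marrow-derived macrophages than in blood monocytes, the cells that give rise to them. In GEMM BMDM 61 of 80 members rose and 5 fell (31.6 and 25.7% of all genes), at a median log2 fold change of 0.77 beside 0.08 for all genes. In GL261 BMDM 63 rose and 7 fell (34.1 and 28.9% of all genes), at a median of 0.80 beside 0.06. Groups did not overlap for 61 members higher and 6 lower in GEMM (29.1 and 22.8% of all genes) and for 63 higher and 8 lower in GL261 (31.3 and 25.3%). Without monocyte libraries 64820 and 64821 the counts were 59 higher and 6 lower, and 57 higher and 7 lower. With the length offset they were 54 higher and 7 lower at a median of 0.57, and 52 higher and 10 lower at a median of 0.56. Both comparisons share the 5 monocyte libraries, and 48 members were called higher in all 4 comparisons of a tumour group with its normal counterpart. The share of all genes called higher in all 4 was not computed. Because the comparisons share libraries, this count is not read as a result about the members.

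Atp5g3, the main gene of the ATP synthase c-ring, rose the most in GEMM BMDM among members above a few CPM. It ran from 35.2 through a median of 55.3 to 64.7 CPM in monocytes, and held 227, 267 and 303 CPM in GEMM BMDM and 227, 252 and 288 CPM in GL261 BMDM, with log2 fold changes of 2.34 ± 0.17 and 2.28 ± 0.17. In monocytes it supplied 45.6 ± 6.87% of the c-ring CPM per kb, with Atp5g2 at 19.0 ± 3.49%, against 66.4 ± 1.86% and 6.44 ± 0.159% in GEMM BMDM. Ndufa12 rose by 1.65 ± 0.15 and 2.34 ± 0.15, and Sdhc, a membrane anchor of complex II, by 1.82 ± 0.16 and 1.93 ± 0.16. Monocytes held 20.3 to 36.9 CPM of Sdhc (median 32.9), and all 6 BMDM libraries at least 101 CPM. All 4 complex II members rose in both models. The core subunits of complex I rose here too, with 6 of 7 called in each model at medians of 0.73 and 0.51, against 0.78 and 0.85 for the accessory subunits.

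A small group of members was highest in monocytes. Of these, Ndufa6, Uqcrfs1, Uqcrh, Cox7a2l and Atp5l, fell in the BMDM of both models. Uqcrc1 and Atp5sl were called lower in GL261 BMDM alone (log2 differences -0.44 ± 0.15 and -0.58 ± 0.15). In GEMM BMDM they were at -0.33 ± 0.15 and 0.05 ± 0.15, not called, so for Atp5sl monocytes did not stand above GEMM BMDM. Ndufa6, an accessory subunit of complex I with a LYR motif, ran from 137 through 161 to 166 CPM in monocytes and held 61.0, 76.1 and 91.2 CPM in GEMM BMDM and 66.9, 68.0 and 79.8 CPM in GL261 BMDM. It fell by 1.04 and 1.12 on the log2 scale (SE 0.14 for each, adjusted p = 7.08e-06 and 2.31e-06). In normal MG it was lower still, at 34.4, 37.9 and 38.9 CPM, and it rose in the microglia of both tumours.

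Cox7a2l, a protein that joins complexes III and IV into supercomplexes and of which C57BL/6 mice carry a short, unstable form, had the same order. It ran from 96.2 through 113 to 122 CPM in monocytes and held 47.9, 51.3 and 53.7 CPM in GEMM BMDM and 42.7, 43.9 and 47.8 CPM in GL261 BMDM. The log2 differences were -1.11 ± 0.10 and -1.30 ± 0.10. Uqcrfs1, the Rieske iron-sulfur protein of complex III, fell by 0.48 and 0.71, and Uqcrh, the hinge protein, by 0.38 and 0.49. Other complex III members moved the opposite way: Uqcrb rose by 1.64 ± 0.14 and 1.46 ± 0.14 and Uqcr10 by 1.13 ± 0.16 and 1.56 ± 0.16 in the same comparisons. Atp5l, subunit g of complex V, fell by 0.90 and 0.71 from a low level, and 84.8% of its 50-base windows occur in other transcripts.

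Of the X-linked members, Cox7b rose against monocytes (1.62 ± 0.15 and 1.76 ± 0.15) and so did Ndufa1 (1.18 ± 0.17 and 1.10 ± 0.17), while Ndufb11 was not called (0.23 ± 0.12 and 0.05 ± 0.12). Sex and cell type cannot be told apart in these values. Cox4i1 and Cox6a1 of complex IV, which rose in the microglia of both models, were not called against monocytes, at 0.14 ± 0.11 and 0.10 ± 0.11 for Cox4i1 and lower values for Cox6a1 (-0.05 ± 0.14 and -0.02 ± 0.14). Cox4i1 was at 303 to 347 CPM in monocytes and at 149, 155 and 169 CPM in normal MG. Cox7a1 and Cox4i2 were called higher in both models, but at 4.28 CPM or less in every library, and 3 of 5 monocyte libraries had no Cox4i2 count, so no fold is given.

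Between the normal cell types the members were lower in microglia. In normal MG against monocytes 11 rose and 35 fell (32.4 and 30.4% of all genes), at a median log2 difference of -0.22 beside 0.01 for all genes. Groups did not overlap for 12 members higher and 40 lower (33.3 and 28.1%). Atp5s stood at the other end, with 19.7 to 20.4 CPM in normal MG and 2.38 to 2.81 CPM in monocytes (log2 difference 2.96 ± 0.15). The length offset left 15 higher and 32 lower at a median of -0.17.

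Within tumours, microglia and bone-marrow-derived macrophages had closely similar respiratory chain transcripts. In GEMM BMDM against MG 2 members (Cox5a and Cox6b2) were higher and 3 (Cox6a2, Cox4nb and Atp5s) lower, against 12.7 and 8.10% of all genes, and in GL261 5 were higher and 2 lower, against 10.7 and 6.81%. With library size alone the GL261 balance turned to 1 higher and 6 lower, with the median of all genes at -0.38, and with only the 2 groups fitted it was 0 in each direction. With the tumour number as a block 2 were higher and 3 lower in GEMM and 7 higher and 2 lower in GL261. The Atp5s call in GEMM (-0.44 ± 0.15) was lost under the block and in 8 of 14 alternatives in all, and the Cox4nb call (-0.38 ± 0.12) in 6 of 14. The members' median log2 differences were 0.03 and 0.12, beside 0.01 and -0.08 for all genes. At this number of libraries the test recovered 54 and 52% of simulated 2-fold changes. The changed genes were few and drawn from all genes above a minimum mean level, so these shares do not give the power for the members. Small differences could still go uncalled. Without single libraries the calls ranged from 0 to 3 higher and 1 to 4 lower in GEMM, where the lowest values came without BMDM library BB30101, and from 3 to 10 higher and 1 to 4 lower in GL261, with 3 higher and 1 lower without BMDM library 80766 and 10 higher without MG library 80769. Groups did not overlap for 4 members higher and 7 lower in GEMM (20.9 and 19.0% of all genes) and 11 higher and 3 lower in GL261 (15.9 and 15.5%).

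Cox5a was the member higher in the BMDM of both models. GEMM BMDM held 213, 229 and 263 CPM against 150, 183 and 189 CPM in GEMM MG, and GL261 BMDM 237, 262 and 267 CPM against 138, 172 and 187 CPM in GL261 MG. The groups did not overlap in either model, and the log2 differences were 0.43 ± 0.13 (adjusted p = 0.0239) and 0.62 ± 0.13 (adjusted p = 0.00283). The GEMM call was lost in 8 of 14 alternatives, which included leaving out any 1 library except BMDM 68702, and the GL261 call in 2 of 14. In GL261 Sdha and Sdhd of complex II were also higher in BMDM, by 0.77 ± 0.14 (adjusted p = 9.86e-04) and 0.56 ± 0.12 (adjusted p = 0.00265). Sdha was at 281, 359 and 379 CPM in GL261 BMDM, all above the GL261 MG values given above. Uqcrc1 was higher by 0.57 ± 0.16, a call lost in 6 of 14 alternatives (down to 0.26), among them without BMDM library 80766 or 80769 or MG library 80767. Uqcrfs1 was higher by 0.35 ± 0.11 (adjusted p = 0.0416), and the Uqcrfs1 call was lost in 11 of 14 alternatives, among them the tumour number as a block (0.34).

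Ndufa4, first described as a complex I subunit and now assigned to complex IV, went the other way in GL261. It held 148, 149 and 211 CPM in GL261 MG and 78.1, 84.2 and 109 CPM in GL261 BMDM, without overlap (log2 difference -0.91 ± 0.15, adjusted p = 3.53e-04). In GEMM the values were 160, 166 and 169 CPM in MG and 118, 128 and 135 CPM in BMDM, also without overlap, and the difference of -0.38 ± 0.15 was not called (adjusted p = 0.0757). A paralogous protein known to replace Ndufa4 in complex IV during inflammation is encoded by AA467197 (C15orf48 in humans), a gene chosen after the Ndufa4 values were seen. AA467197 was at 8.83, 9.46 and 16.7 CPM in GL261 MG and at 32.8, 39.3 and 65.0 CPM in GL261 BMDM. It was at 2.17, 3.35 and 19.1 CPM in GEMM MG, 20.2, 60.8 and 98.6 CPM in GEMM BMDM, at most 0.0336 CPM in normal MG and at most 5.06 CPM in monocytes. Its groups did not overlap between BMDM and MG of either model.

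Cox6b2, the testis form of subunit VIb, was at 0.487 to 1.22 CPM in GEMM MG and 1.91 to 3.98 CPM in GEMM BMDM, a log2 difference of 1.72 ± 0.45 (adjusted p = 0.0109) at levels of a few CPM, lost without BMDM library BB30101 or MG library 68702 or BB30105. Its highest level was in monocytes, at 2.68 to 4.32 CPM. Whether BMDM and MG differed more in one model than in the other was tested as an interaction, and edgeR called 0 members in either direction, against 0.605 and 1.02% of all genes. At an unadjusted p under 0.05 there were 3 members higher and 2 lower, and DESeq2 called 1 in each direction. The interaction for Sdha was 0.58 ± 0.20 (adjusted p = 0.162) and for Ndufa4 -0.53 ± 0.21 (adjusted p = 0.221), neither of them called.

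The 2 tumour models differed little in BMDM, with 2 members higher and 3 lower in GL261 (10.2 and 9.46% of all genes) at a median log2 difference of 0.03. Groups did not overlap for 8 members higher and 7 lower (18.1 and 18.5%). Ndufa12 was higher in GL261 BMDM by 0.69 ± 0.16 (adjusted p = 0.00644) and Uqcrc2 lower (log2 difference -0.47 ± 0.12, adjusted p = 0.00851). In MG 7 were higher and 14 lower in GL261 (18.8 and 15.5% of all genes), at a median of -0.11. Groups did not overlap for 5 members higher and 17 lower (24.8 and 22.1%). These counts moved with single libraries: 4 were lower without GL261 MG library 80767, 23 were lower without 80769, and 1 was higher without GEMM MG library BB30105. They also turned with the scaling, because with library size alone 34 members were higher and 0 lower, and the median of all genes then lay at 0.48 against 0.34 for the members. Sdha was lower in GL261 MG (-0.70 ± 0.14, adjusted p = 0.00106) in all 12 alternatives, from -0.85 to -0.26, and was called in all but library size alone.

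Other genes of the pathway were counted from lists. Of 6 subunit genes that the symbol rule misses, 5 rose in GEMM MG and 4 in GL261 MG against normal MG, among them Cyc1, the cytochrome c1 of complex III (0.69 ± 0.14 and 1.11 ± 0.14), and Usmg5, a small ATP synthase subunit (1.46 ± 0.13 and 2.23 ± 0.13). Of 10 complex I assembly factors, 2 rose and 1 fell in GEMM MG and 4 rose and 1 fell in GL261 MG, near the 23.0 and 30.6% of all genes called higher there. Against monocytes 9 of 10 rose in the BMDM of each model, beside 31.6 and 34.1% of all genes. Tmem126a, an assembly factor of the membrane arm, rose in both kinds of cell, by 0.96 ± 0.14 and 0.99 ± 0.14 in MG and by 1.67 ± 0.12 and 1.68 ± 0.12 in BMDM. Of 12 complex IV assembly factors 2 (16.7%) and 5 (41.7%) rose in MG, also near those shares, and Cox17, a copper chaperone, rose by 1.03 ± 0.17 and 1.07 ± 0.17. Atpif1, which inhibits reverse ATP hydrolysis by complex V, rose in all 4 comparisons, by 1.15 ± 0.20 and 1.38 ± 0.20 in MG and by 1.75 ± 0.18 and 1.91 ± 0.18 in BMDM.

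Regulators of mitochondrial biogenesis were counted in the same way. The list also holds genes that act on mitochondrial DNA, among them Tfam and Polg, and not on the members. Of 15 regulators of mitochondrial biogenesis, 0 rose and 6 fell in GEMM MG by edgeR, with 0 higher at an unadjusted p under 0.05, and 2 rose and 5 fell in GL261 MG. All genes were called higher and lower at 23.0 and 20.9% in GEMM MG and at 30.6 and 27.2% in GL261 MG. In BMDM against monocytes 4 rose in each model, and 6 fell in GEMM and 7 in GL261, beside 31.6 and 25.7% of all genes in GEMM and 34.1 and 28.9% in GL261. Nrf1, which binds the promoters of many subunit genes, averaged 60.8 CPM in normal MG against 38.1 CPM in GEMM MG and 42.6 CPM in GL261 MG, and fell by 0.67 and 0.51 on the log2 scale. Gabpa, the DNA-binding part of the ETS-family factor GABP, fell by 0.72 and 0.95. Ppargc1a, a coactivator that drives mitochondrial biogenesis in muscle and brown fat, stood at 1.12 CPM or less in each group mean. Against monocytes Nrf1 fell by 0.89 and 0.83, and Ppargc1b, a related coactivator, rose by 0.83 ± 0.25 and 1.49 ± 0.24.

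Promoter sequences of the members were read from RefSeq (GRCm38.p6), which held a window of 300 bases (250 before to 50 after the start) for 64 of 80 members. The NRF1-type motif (GCGCA, any base, then GCGC) occurred on either strand in 16 of 64 members (25%) and in 5.19% of 27025 genes with such windows. Those 27025 genes were not limited to the genes tested here, while all members were tested. The sets are therefore unlike, and the shares below do not single out the members among expressed genes. CCGGAAG, an ETS-type core, occurred in 16 members (25%) and in 9.93% of genes. A YY1-type motif (A, any base, then ATGGCG and GC in a row) was in 7.8% of members and 1.41% of genes, and TCAAGGTCA, bound by estrogen-related receptors, in 3.1 and 0.466%. The motifs do not contain one another, and a match describes these letters and is no evidence of binding. Shown are the promoters of the 4 members with an NRF1-type match that had the largest smaller rise in the 2 microglia comparisons (Atp5k 1.74, Atp5g3 1.38, Atp5o 1.35 and Ndufs6 1.27, log2), 5′ to 3′ on the strand of the gene, with the match in capitals. They show the motif at different distances from the start, from 50 bases before it in Atp5k (chr5:108434350-108434649, minus strand) and 16 before it in Ndufs6 (chr13:73328433-73328732, minus) to 9 bases after it in Atp5o (chr16:91931581-91931880, minus) and 12 after it in Atp5g3 (chr2:73911277-73911576, minus).
Atp5k: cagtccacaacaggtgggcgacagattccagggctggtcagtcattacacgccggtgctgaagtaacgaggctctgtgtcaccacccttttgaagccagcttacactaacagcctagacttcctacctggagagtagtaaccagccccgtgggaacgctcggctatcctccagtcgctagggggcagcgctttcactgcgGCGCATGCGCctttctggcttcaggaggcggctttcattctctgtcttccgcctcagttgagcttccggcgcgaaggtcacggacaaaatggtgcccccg
Atp5g3: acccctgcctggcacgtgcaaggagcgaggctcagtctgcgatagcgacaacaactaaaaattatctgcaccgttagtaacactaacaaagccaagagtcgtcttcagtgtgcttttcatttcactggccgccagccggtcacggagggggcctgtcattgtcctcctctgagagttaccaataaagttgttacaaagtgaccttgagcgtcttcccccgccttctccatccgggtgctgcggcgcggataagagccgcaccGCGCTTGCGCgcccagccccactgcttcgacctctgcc
Atp5o: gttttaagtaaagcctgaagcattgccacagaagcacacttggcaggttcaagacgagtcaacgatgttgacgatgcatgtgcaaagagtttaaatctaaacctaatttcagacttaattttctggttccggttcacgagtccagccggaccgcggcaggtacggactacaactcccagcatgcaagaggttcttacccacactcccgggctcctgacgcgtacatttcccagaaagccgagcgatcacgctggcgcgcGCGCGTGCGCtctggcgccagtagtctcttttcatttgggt
Ndufs6: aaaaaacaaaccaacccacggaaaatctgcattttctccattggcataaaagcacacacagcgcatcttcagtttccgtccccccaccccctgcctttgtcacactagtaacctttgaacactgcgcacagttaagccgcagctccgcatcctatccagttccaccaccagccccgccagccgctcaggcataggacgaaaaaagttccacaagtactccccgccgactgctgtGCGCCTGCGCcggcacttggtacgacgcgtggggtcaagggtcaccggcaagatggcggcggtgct

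Ribosomal protein genes were counted beside the members. Of 76 mitochondrial ribosomal protein genes, which make the mitochondrially encoded subunits, 47 rose in GEMM MG and 56 in GL261 MG against normal MG. The medians were 0.55 and 0.62, and 54 and 57 rose in BMDM against monocytes. All genes were called higher at 23.0 and 30.6% in those MG comparisons and at 31.6 and 34.1% in the BMDM ones. With the length offset 37 and 44 mitochondrial ribosomal genes rose in MG, and 37 and 44 in BMDM. Of 76 cytoplasmic ribosomal protein genes, 74 and 75 rose in the 2 tumour MG groups, at medians of 1.35 and 1.75. These genes had a median length of 756 nucleotides, near that of the members. With the length offset 70 and 73 of them rose in tumour MG, at medians of 0.95 and 1.22. In BMDM against monocytes 60 and 54 cytoplasmic ribosomal genes fell (25.7 and 28.9% of all genes), at medians of -0.78 and -0.81. With the length offset 69 and 67 fell. Without the offset 61 and 63 of the 80 oxidative phosphorylation members rose in these comparisons. The summed level of the cytoplasmic ribosomal genes (77 with the untested one) was highest in monocytes, at 23530 ± 2779 CPM against 12848 ± 2775 in GEMM BMDM and 5040 ± 639 in normal MG.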

How the data were processed

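Gene counts were deposited by the authors as whole numbers of reads per gene symbol for 20 libraries, and the mouse build mm10 with STAR 2.5.0e, CASAVA 1.8, DESeq2 and HTSeq are listed, per the submitters' processing notes, without the strand setting or annotation of the counting. Groups were taken from the labels. edgeR's filterByExpr kept 15363 genes (count of at least 10, total of at least 15), and libraries were scaled by TMM; all 6 groups were fitted together in edgeR 4.0.16 (limma 3.58.1, R 4.3.3) with the quasi-likelihood test and Benjamini-Hochberg adjustment over all genes. The fits were tested on simulated data. The length trend was a lowess curve (span 0.3) over 15186 genes with a GENCODE length. Alternatives were DESeq2 1.42.0 (its size factors and its test), library size alone, no filter, only the groups compared, the length offset, the replicate block and leaving out libraries. MG and BMDM with the same number come from matched tumours per the series design. Their deviations from the group means correlated (0.28 to 0.38 in GEMM, 0.35 to 0.51 in GL261). The numbers were taken as pairs only in the alternatives with the replicate block. The main fit had no block, so its SE and p-values for BMDM against MG ignore the pairing. Named genes were, per comparison, up to 4 called members per direction with the largest changes. They also included 10 core subunits, the isoform sets, the highest and lowest member of each complex per kb and the X-linked members. From each other list came up to 2 called genes per direction. Members named outside this rule (among them Uqcr10, Uqcrh and Ndufs6, and Sdhd in tumour MG against normal MG) were chosen after their values were seen. The members and lists were chosen with earlier results of these data known. The replicates with the closest counts (monocytes 64818 and 64819) still differed by 3.08 times the sampling noise (chi-square per degree of freedom). Of the 80 members 46 share at least one 50-base stretch of transcript with another gene and 20 have a gene on the opposite strand over an exon, so their counts are less certain. Ly6g, Ndufs5 beyond its listed 0, and mitochondrially encoded genes are not analysed here. The values of 1 further member are not reported here.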

Additional observations from a re-analysis of the deposited data

How the results depend on the processing

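Over 167 results for named genes and 2259 alternatives, 2079 kept the call and direction, 174 lost the call and 6 reversed. The reversals were Uqcrb in GL261 MG against normal MG with the length offset (-0.14) and, in GL261 MG against GEMM MG with library size alone, Ndufs1 (0.11), Sdhb (0.02), Uqcrfs1 (0.11), Cox4i1 (0.12) and Cox7a2l (0.13); with that scaling the median of all genes lay at 0.48, against 0.04 with TMM. The cause was not tested for the other changes below.

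With library size alone, GL261 BMDM against MG had 1 member higher and 6 lower, GL261 MG against normal MG 1 lower, GL261 against GEMM MG 34 higher and 0 lower, and GL261 against GEMM BMDM 4 higher and 0 lower. With DESeq2 size factors, GEMM BMDM against MG had 1 higher and 6 lower and GEMM MG against normal MG 1 lower. The DESeq2 test gave 6 lower in GEMM BMDM against MG and an interaction of 1 higher and 1 lower. Without the filter, GEMM BMDM against MG had 1 higher and 1 lower, GL261 BMDM against MG 3 higher, GEMM MG against normal MG 1 lower and GL261 against GEMM BMDM 1 higher. With only the groups compared, where fewer samples estimate the spread, GEMM BMDM against MG had 1 higher, GL261 BMDM against MG 0 in each direction, GL261 against GEMM MG 2 higher and 5 lower, and GL261 against GEMM BMDM 1 higher and 0 lower. The length offset gave 5 lower in GEMM BMDM against MG, 8 higher in GL261 BMDM against MG (also 8 with the replicate block and length offset) and 1 lower in GEMM MG against normal MG.

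Leaving out 1 library at a time gave 0 to 3 higher and 1 to 4 lower in GEMM BMDM against MG, 3 to 10 and 1 to 4 in GL261 BMDM against MG, 70 to 73 and 1 to 1 in GEMM MG against normal MG, 57 to 67 and 3 to 3 in GL261 MG against normal MG, 59 to 62 and 4 to 5 in GEMM BMDM and 56 to 63 and 6 to 7 in GL261 BMDM against monocytes, 11 to 12 and 31 to 37 in normal MG against monocytes, 1 to 8 and 4 to 23 in GL261 against GEMM MG, 1 to 2 and 0 to 4 in GL261 against GEMM BMDM, and 0 to 1 higher in the interaction. With the replicate block, 2 members were higher and 3 lower in GEMM and 7 higher and 2 lower in GL261, and the interaction gave 0 in each direction; Atp5s in GEMM (-0.44) and Uqcrfs1 in GL261 (0.34) lost their calls under the block. Depth limits members near 0 in monocytes, and intervals of counts cover counting error only.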
